A study of Mus musculus with 12 samples.

Results

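The replication-dependent histone genes were taken as the protein-coding genes whose symbols begin with Hist1h, Hist2h, Hist3h or Hist4h, which gave 67 genes of the 51826 in the deposited files. By product they were 6 genes of linker histone H1, 18 of H2A, 18 of H2B, 12 of H3 and 13 of H4. In mouse build mm10, 54 of them lie in the Hist1 cluster on chromosome 13, 10 in Hist2 on chromosome 3, 2 in Hist3 on chromosome 11, and Hist4h4 stands alone on chromosome 6. Gaps of more than 100000 bases divide Hist1 into 4 blocks of 18, 5, 29 and 2 genes. Polyadenylated RNA of mouse thymus was read as paired ends of 75 bases from 9 tumors and 3 controls. Per the labels, the tumors were T cell acute lymphoblastic leukemias (T-ALL) of mice in which tetracycline induces IL-7Rα, a subunit of the receptor for interleukin-7, and their titles name doxycycline induction. The controls were thymus of healthy mice, and the labels give the strain as F5 in both groups. The labels do not give the promoter of the transgene, ages, or whether each library came from its own animal, so a p-value here reflects the spread among the 12 libraries alone, and that spread may be technical.

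Core histones H2A, H2B, H3 and H4 form the protein spool of the nucleosome, and H1 binds the linker DNA where it enters and leaves. A dividing cell makes most of its histone protein in S phase from clustered genes that lack introns. Their messages as a rule end in a conserved stem-loop in place of a poly(A) tail. SLBP binds this stem-loop, the U7 small nuclear ribonucleoprotein with LSM11 positions the cut downstream of it, and NPAT activates transcription of the clusters. Some of these genes also give messages with poly(A) tails, for instance in cells that have left the cell cycle. The libraries were made from polyadenylated RNA, so the values are of histone RNA recovered in that fraction, and the total of histone messages in the cells was not measured.

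Estimated counts totalled 11617724 to 34769946 in the tumors and 8133152 to 12019924 in the controls. Tumors 7 to 9 and the controls stood apart from tumors 1 to 6 in composition. The mitochondrial share of counts was between 31.6% and 69.3% for tumors 1 to 6, against 2.54% to 11.1% for tumors 7 to 9 and 0.0949% to 6.73% for the controls. The tissue label was checked with 14 T cell genes such as Cd3e, Lck and Thy1, whose summed CPM (counts scaled to library size with trimmed means of M-values) was 1663 to 2309 in tumors 1 to 6, against 69.7 to 147 for tumors 7 to 9 and 55.2 to 115 in the controls. A background was set from 1450 olfactory and vomeronasal receptor genes, which thymus does not use. At most 4 of the 14 T cell genes in tumors 7 to 9 and at most 3 in the controls were above the 95th percentile of these receptor genes, against 12 or 13 in tumors 1 to 6. Il7r itself was at 33.3 to 511 CPM in tumors 1 to 6, against 5.03 to 5.63 CPM for tumors 7 to 9 and 2.52 to 3.203 CPM in the controls. Results below are therefore given for tumors 1 to 6, for tumors 7 to 9 and for the controls.

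Of the members' transcripts, 47 from 45 genes had a sequence of the same identifier and length in GENCODE M21, and 26 of these held a stem-loop. In 6 of these models, from Hist1h1c, Hist2h3c1, Hist2h4, Hist3h2a and Hist4h4, more of the model lay after the stem-loop than before it. The stem-loops are shown because they mark these messages and because they divided the H4 genes from the rest. Capitals mark the stem and lower case the loop.

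16 members of H1, H2A, H2B and H3, such as Hist1h1c and Hist1h3a: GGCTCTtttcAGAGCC
Hist1h2bk and Hist1h3e: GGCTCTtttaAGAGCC
Hist2h2ac: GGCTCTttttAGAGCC
Hist1h4f, Hist1h4m, Hist1h4n and Hist4h4: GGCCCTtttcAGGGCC
Hist1h4i and Hist2h4: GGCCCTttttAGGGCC

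All 6 stem-loops of H4 transcripts began with GGCCCT and ended with AGGGCC, and all 20 of H1, H2A, H2B and H3 transcripts began with GGCTCT and ended with AGAGCC. The loop of 4 bases varied in its last base in both forms. The other 21 transcript models held no match, which describes the models and not the RNA.

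Promoters of 60 members were matched in a RefSeq table of build GRCm38.p6 as windows of 300 bases, from 250 before to 50 after the start, 61 windows in all, of which those of head to head pairs overlap in part. The 200 bases before the start are printed for the highest H1, H3 and H4 genes in tumors 1 to 6, for Hist1h2bg, the H2B gene second in level in all of tumors 1 to 6, and for Hist4h4, the member with the highest median level in the controls. Capitals mark, on either strand and at any place in the window, the letters TATAAA, a spelling of the TATA box, and CCAAT, of the CCAAT box. They also mark the H1 box, spelled AAACACA, and the octamer, spelled ATTTGCAT.

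Hist1h1e, chr13:23622559-23622758, minus strand: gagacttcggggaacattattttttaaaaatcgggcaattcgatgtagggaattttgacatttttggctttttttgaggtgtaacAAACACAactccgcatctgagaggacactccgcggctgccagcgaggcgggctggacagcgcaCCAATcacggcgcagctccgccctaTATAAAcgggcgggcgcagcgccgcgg
Hist1h2bg, chr13:23571200-23571399, plus strand: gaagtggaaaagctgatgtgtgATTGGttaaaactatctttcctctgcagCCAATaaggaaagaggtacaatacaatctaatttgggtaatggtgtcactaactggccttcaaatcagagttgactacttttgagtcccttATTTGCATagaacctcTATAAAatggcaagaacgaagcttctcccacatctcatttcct
Hist1h3i, chr13:21783398-21783597, minus strand: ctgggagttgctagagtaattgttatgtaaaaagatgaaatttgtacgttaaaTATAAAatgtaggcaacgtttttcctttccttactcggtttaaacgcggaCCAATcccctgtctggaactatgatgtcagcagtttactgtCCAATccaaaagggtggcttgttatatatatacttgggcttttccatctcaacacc
Hist1h4k, chr13:21750554-21750753, minus strand: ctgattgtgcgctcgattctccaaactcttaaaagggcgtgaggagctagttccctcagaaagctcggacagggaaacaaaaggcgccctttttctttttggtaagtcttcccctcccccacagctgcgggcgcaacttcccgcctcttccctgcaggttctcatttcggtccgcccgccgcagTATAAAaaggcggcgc
Hist4h4, chr6:136804432-136804631, minus strand: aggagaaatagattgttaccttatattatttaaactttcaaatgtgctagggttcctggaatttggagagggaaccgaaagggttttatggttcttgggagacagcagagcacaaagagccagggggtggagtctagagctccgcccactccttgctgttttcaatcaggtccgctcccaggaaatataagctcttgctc

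CCAAT was in all 6 windows of H1, all 18 of H2A, all 15 of H2B and all 10 of H3, against 25% of 12 windows of H4 and 37.4% of 32851 RefSeq promoters. The octamer ATTTGCAT was in 38.9% of H2A and 40% of H2B windows, in 0 of the H1, H3 and H4 windows and in 1.74% of all promoters. AAACACA was in 5 of 6 H1 windows, 83.3%, against 7.18% of all promoters. TATAAA stood in 57.4% of the members' windows and 13.6% of all promoters. TTTCGCGC, an E2F-like motif, stood in 27.8% of H2A and 26.7% of H2B windows, in 0 of the other members' windows and in 0.323% of all promoters. Each motif was searched on both strands, and a match describes letters, not a bound site or a cause. In the windows printed above, Hist1h1e holds the H1 box, CCAAT and TATAAA, and Hist1h2bg holds CCAAT and the octamer before TATAAA. Hist1h3i holds CCAAT and TATAAA, but its TATAAA lies farther from the start than its CCAAT matches, so it is not placed as a TATA box. Hist1h4k holds TATAAA only, and Hist4h4 holds none of the 4 in capitals.

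Histone genes took 0.126%, 0.132%, 0.108%, 0.0543%, 0.235% and 0.546% of all estimated counts in tumors 1 to 6, 0.00980%, 0.0274% and 0.0195% in tumors 7 to 9, and 0.0154%, 0.0170% and 0.0155% in the controls. Tumors 1 to 6 were all above the controls, tumors 8 and 9 were above them by less, and tumor 7 lay below all 3. Because mitochondrial counts differed between the libraries, the share was also taken of protein-coding counts outside the mitochondrial chromosome. It was then 0.387% to 1.42% in tumors 1 to 6, 0.0146%, 0.0466% and 0.0303% in tumors 7 to 9, and 0.0243% to 0.0270% in the controls. In tumors 1 to 6 the members' counts were 30854, 28772, 22282, 14120, 81686 and 100548. Tumors 7 to 9 had 1682, 3735 and 2271 counts and controls 1 to 3 had 1846, 1481 and 1257. As summed CPM, the members reached 1924 in tumor 4 and 6407 in tumor 6, the lowest and highest of tumors 1 to 6. The sums were 97.3, 158 and 76.1 CPM in tumors 7 to 9 and 61.3, 53.9 and 51.0 CPM in the controls. No 95% Wilson interval of a share of all counts extended more than 0.0034 percentage points from its share. These intervals hold for counting error alone, and the labels name no molecular identifiers by which molecules could be counted.

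Levels between genes were compared per length, as CPM per kilobase of effective length (CPM per kb). The median member stood at 29.8 to 150 CPM per kb in tumors 1 to 6, against 1.11 to 3.08 for tumors 7 to 9 and 0.660 to 0.878 in the controls. In the controls this was 0.851 to 1.09 times the median receptor gene, so the median member could not be told from that background there. The ratio was 1.36, 4.61 and 1.47 in tumors 7, 8 and 9. Among protein-coding genes, the median member ranked at percentile 90.5 to 98.96 in tumors 1 to 6, against 39.9 to 73.5 for tumors 7 to 9 and 17.6 to 26.6 in the controls. In tumor 6, 33 members were among the highest 1% of protein-coding genes, and 51 among the highest 10%. In tumors 1 to 5 these numbers were 8 to 20 and 34 to 42. From 51 to 63 members exceeded the 95th percentile of the receptor genes in tumors 1 to 6, from 1 to 8 in tumors 7 to 9, and 2, 0 and 0 in controls 1 to 3. The 2 in control 1 were Hist2h2bb and Hist4h4. In tumors 1 to 6, 45 members exceeded it in every tumor, while the testis genes Hist1h2aa and Hist1h2ba exceeded it in none.

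**Figure D1:**
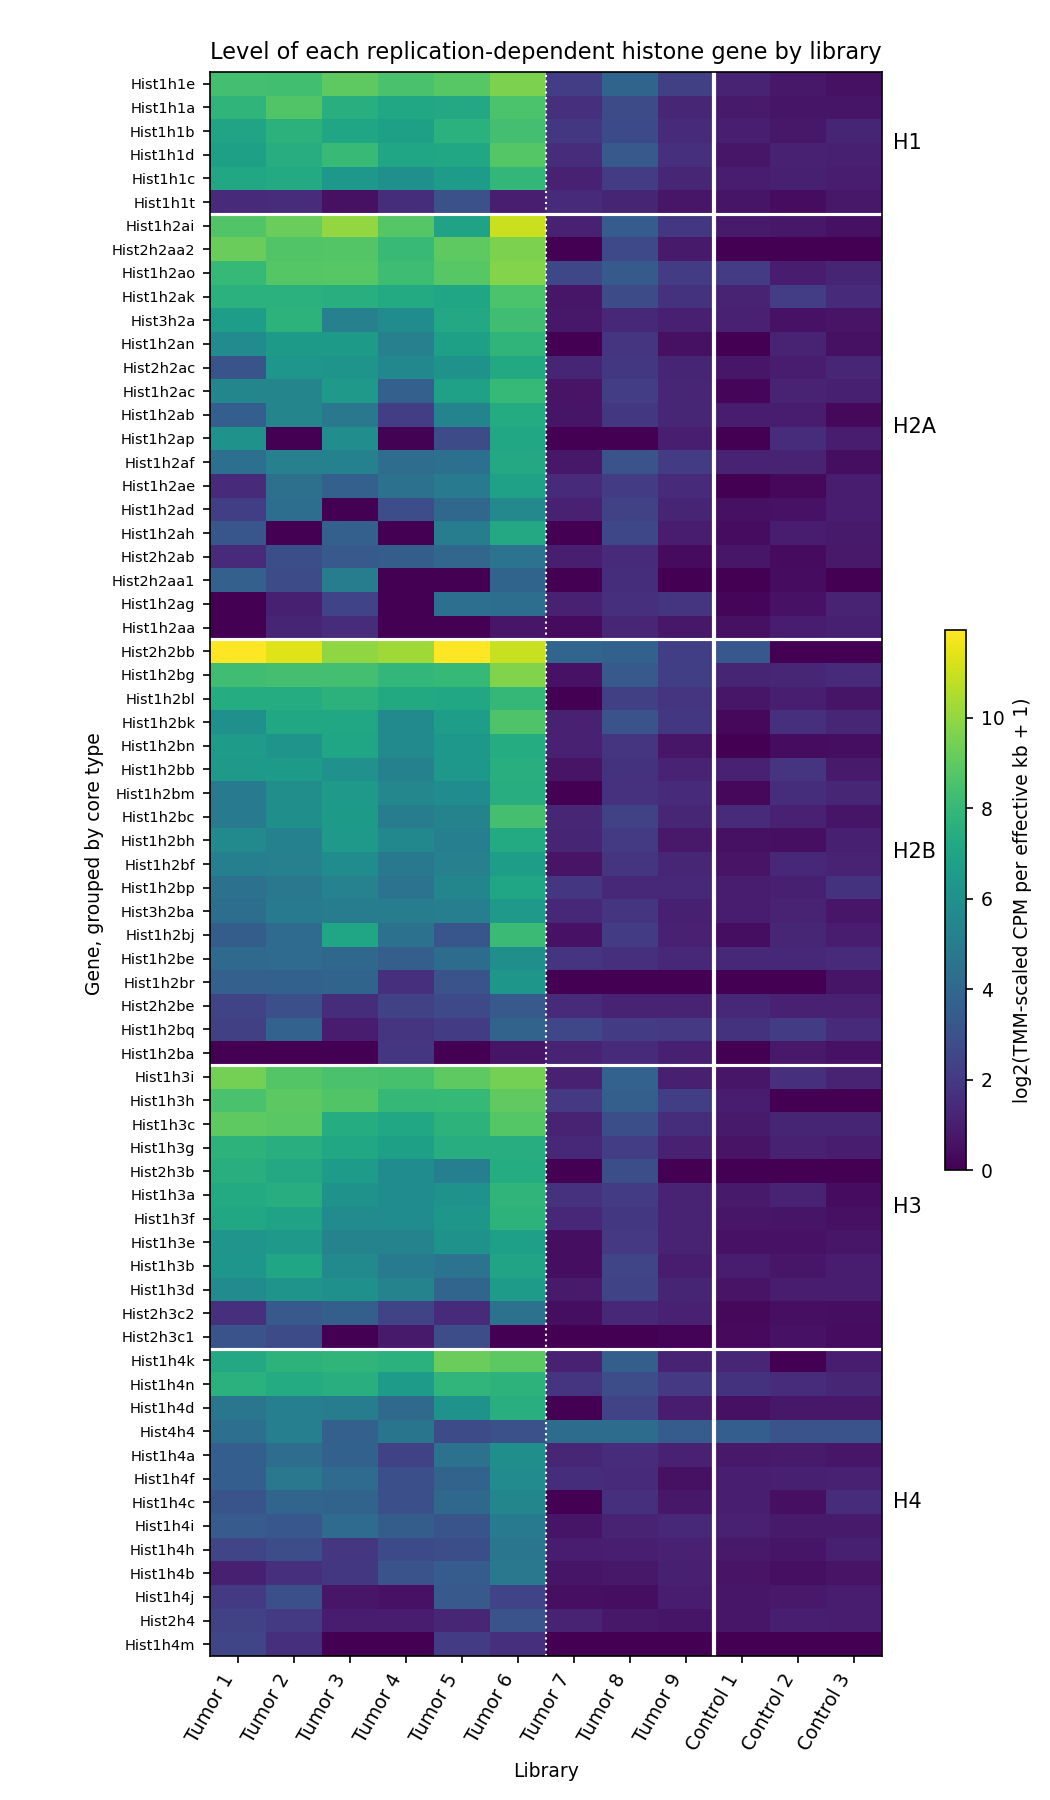
Level of all 67 genes (rows, grouped by core type and sorted by their median in tumors 1 to 6) in the 12 libraries (columns), as log2 of CPM per effective kilobase plus 1. Most rows are bright in tumors 1 to 6 and dark in tumors 7 to 9 and the controls, and the row of Hist4h4 differs little in shade between the groups.

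**Figure D2:**
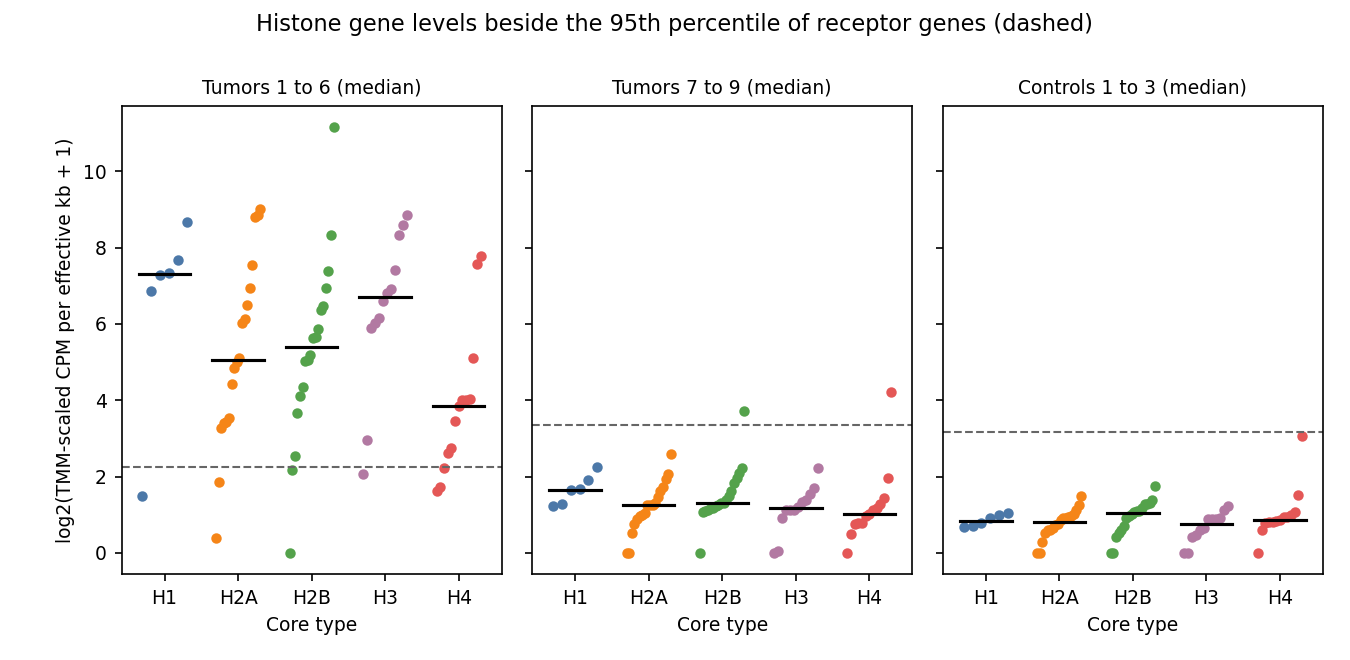
Median level of each gene (points) in tumors 1 to 6, tumors 7 to 9 and controls 1 to 3, as log2 of CPM per effective kilobase plus 1, by core type. Bars are medians over genes, and the dashed line is the 95th percentile of receptor genes (median over the libraries of each panel). In the controls all points lie below that line, and in tumors 1 to 6 most lie above it.

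The genes most often highest in each core type, and Hist4h4, lie in mm10 with Hist1h1e at chr13:23620629-23622558 (minus strand), Hist1h2ai at chr13:21716422-21716814 (plus strand), Hist2h2bb at chr3:96269752-96270132 (plus strand), Hist1h3i at chr13:21782960-21783370 (minus strand), Hist1h4k at chr13:21750194-21750505 (minus strand) and Hist4h4 at chr6:136801553-136804415 (minus strand).

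Linker histone genes were led by Hist1h1e, the gene of H1.4, which had the highest H1 level in 5 of tumors 1 to 6. Hist1h1e was at 184 to 447 CPM in tumors 1 to 6 (median 234), against 2.02, 7.96 and 2.28 CPM for tumors 7 to 9 and 0.729, 0.400 and 0.243 CPM in the controls. Hist1h1a, the gene of H1.1, led in tumor 2, and had 62.8 to 197 CPM in tumors 1 to 6 (median 93.9), against 1.04, 2.84 and 0.704 CPM for tumors 7 to 9 and 0.398, 0.291 and 0.283 CPM in the controls. Hist1h1e overlaps Hist1h2be on the same strand, whose own counts were 178 to 2124 in tumors 1 to 6. All tumors were above all controls for Hist1h1e and Hist1h1a, with the 3 tumors numbered 7 to 9 far nearer to the controls than to the other tumors. Hist1h1b (H1.5) and Hist1h1d (H1.3) were at 60.5 to 188 and 62.0 to 254 CPM in tumors 1 to 6, against means of 0.578 ± 0.185 and 0.542 ± 0.156 CPM in the controls (SD, n = 3). Hist1h1c, the gene of H1.2, has a transcript of 1560 bases with AATAAA near its end, and had 85.5 to 326 CPM in tumors 1 to 6 against 1.31 ± 0.157 CPM in the controls (SD, n = 3). Per kilobase the H1 medians over tumors 1 to 6 ran in the order Hist1h1e (410), Hist1h1a (202), Hist1h1b (160), Hist1h1d (155) and Hist1h1c (114). The ranges of the last 4 over the tumors overlapped. Hist1h1t, the testis form of H1, was at 0.246 to 3.75 CPM in tumors 1 to 6, against 0.369 to 0.983 CPM for tumors 7 to 9 and 0.182 to 0.405 CPM in the controls, and the groups overlapped.

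Genes of H2A were led by Hist1h2ai in 4 of tumors 1 to 6 and by Hist2h2aa2 in 2. Hist1h2ai was at 91.0, 134, 235, 96.6, 25.8 and 469 CPM in tumors 1 to 6, against 0.231, 2.45 and 0.704 CPM for tumors 7 to 9 and 0.199, 0.146 and 0.0809 CPM in the controls. Tumor 6 was highest and tumor 5 lowest for this gene, a span of 18.2 times. Hist2h2aa2 had 94.4 to 271 CPM in tumors 1 to 6, against 0, 1.95 and 0.335 CPM for tumors 7 to 9 and 0 counts in all 3 controls. Its median in tumors 1 to 6 was at least 1355-fold higher than a floor of 3 counts in a control. Hist2h2aa2 shares its sequence with Hist2h2aa1, and neither holds a word of 31 bases of its own, so they cannot be told apart and their sum is given: 94.4 to 276 CPM in tumors 1 to 6, against 0 to 2.75 CPM for tumors 7 to 9 and 0 to 0.109 CPM in the controls. Both also share words with other H2A genes, and Hist2h2aa1 overlaps Gm20634 on the same strand, which had 0 to 349.5 counts in tumors 1 to 6, so the sum is uncertain too. Hist1h2ao had 76.0 to 263 CPM in tumors 1 to 6, Hist1h2ak had 29.0 to 86.7 CPM, and their means in the controls were 0.574 ± 0.396 and 0.489 ± 0.244 CPM (SD, n = 3). Hist3h2a, which has a long transcript of 2146 bases, was at 71.4 to 611 CPM in tumors 1 to 6, against 1.39 to 3.09 CPM for tumors 7 to 9 and 1.02 to 2.25 CPM in the controls. Hist3h2a overlaps Trim17 on the same strand, whose own counts were 35.1 to 97.8 in tumors 1 to 6. The testis gene Hist1h2aa was at 0 to 0.369 CPM in tumors 1 to 6 and 0.0994 to 0.243 CPM in the controls, which is a few counts in each library.

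Genes of H2B were led in every one of tumors 1 to 6 by Hist2h2bb, at 785, 565, 211, 247, 830 and 432 CPM, against 3.01, 2.79 and 0.872 CPM in tumors 7 to 9. It had 56, 0 and 0 counts in controls 1 to 3, so its log2 fold change in all libraries, 9.08, depends on that library. Without control 1 the fitted value was 15.42, which is no measure of size because the remaining controls were at 0. Its value is uncertain: the transcript of 381 bases holds no word of 31 bases of its own and overlaps the lincRNA Gm42743 on the same strand and Gm20628 on the other. Gm42743 had 130 to 936 counts and Gm20628 had 218 to 2168 counts in tumors 1 to 6. Next came Hist1h2bg, at 70.5 to 253 CPM in tumors 1 to 6 (median 96.4), against 0.173, 2.96 and 1.21 CPM for tumors 7 to 9 and 0.398, 0.437 and 0.526 CPM in the controls. Tumor 6 stood above the other tumors for Hist1h2bg, and tumor 7 lay below every control. Hist1h2bl varied least among the named H2B genes, from 30.4 to 54.4 CPM in tumors 1 to 6, a span of 1.79 times, against 0.158 ± 0.0530 CPM in the controls (SD, n = 3). Hist1h2bk spanned 15.1 to 124 CPM and Hist3h2ba 8.15 to 36.8 CPM in tumors 1 to 6, with control means of 0.377 ± 0.282 and 0.408 ± 0.115 CPM (SD, n = 3). Hist1h2ba, the testis H2B gene, had 0 counts in 4 of tumors 1 to 6 and was at most 0.545 CPM there, 0.381 CPM in tumors 7 to 9 and 0.182 CPM in the controls. Hist1h2bq, chosen after its values were seen, overlapped the controls. It was at 1.72 to 23.96 CPM in tumors 1 to 6, against 5.77 to 9.08 CPM for tumors 7 to 9 and 4.67 ± 1.42 CPM in the controls (SD, n = 3), with tumor 3 below every control.

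Genes of H3 were led by Hist1h3i in 4 of tumors 1 to 6 and by Hist1h3h in 2. Hist1h3i was at 82.5 to 170 CPM in tumors 1 to 6 (median 113), against 0.289, 3.26 and 0.268 CPM for tumors 7 to 9 and 0.166, 0.473 and 0.283 CPM in the controls. Hist1h3h, like Hist1h3i a gene of H3.1, was at 58.1 to 128 CPM in tumors 1 to 6 (median 92.2), against 0.751, 2.92 and 1.01 CPM for tumors 7 to 9 and 0.232, 0 and 0 CPM in the controls. Tumors 7 and 9 fell within the range of the controls for Hist1h3i, while all 9 tumors were above the controls for Hist1h3h. Hist1h3c and Hist1h3g were highest in tumor 1, at 154 and 51.5 CPM, and lowest of tumors 1 to 6 in tumor 4, at 42.5 and 26.6 CPM. By protein, a division chosen after the values were seen, Hist1h3a, Hist1h3g, Hist1h3h and Hist1h3i, which encode H3.1, gave 55.3% to 69.8% of the per-length H3 signal in tumors 1 to 6, and the other 8 genes, which encode H3.2, gave 30.2% to 44.7%. This split is uncertain, as words of 31 bases found in no other gene made up a median of 6.82% of the 9 H3 transcripts with a sequence. For Hist1h3i and Hist1h3h they made up 6.82% and 5.77%. Hist2h3c1 had 0 to 12.01 CPM in tumors 1 to 6, against 0 to 0.101 CPM for tumors 7 to 9 and 0.398 to 0.837 CPM in the controls. Its transcripts and that of Hist2h3b hold no word of 31 bases of their own, and the 3 Hist2 genes of H3 together had 21.9 to 71.7 CPM in tumors 1 to 6, against 0.347 to 3.43 CPM for tumors 7 to 9 and 0.564 to 1.16 CPM in the controls.

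Genes of H4, which as a rule encode the same protein, had the lowest median level per gene, at 13.3 CPM per kb over tumors 1 to 6, against 158 for H1, 104 for H3, 42.0 for H2B and 32.1 for H2A. Hist1h4k and Hist1h4n together gave 61.6% to 83.6% of the per-length H4 signal in tumors 1 to 6. Words of 31 bases of their own made up 13.8% and 12.5% of these 2 transcripts, so the split between H4 copies is uncertain. The part of the long Hist4h4 depends on the division by length. Per length the median shares of all histone signal were 6.42% for H4 and 0.164% for Hist4h4. By counts they were 5.37% and 1.35%. Hist1h4k was at 21.4, 32.7, 34.4, 28.5, 88.5 and 76.0 CPM in tumors 1 to 6, against 0.173, 1.82 and 0.201 CPM for tumors 7 to 9 and 0.232, 0 and 0.121 CPM in the controls. Tumors 5 and 6 were high for Hist1h4k, and tumors 7 and 9 lay within the range of the controls. Hist1h4n was at 22.9 to 60.3 CPM and Hist1h4d at 3.54 to 40.2 CPM in tumors 1 to 6, against 0.489 ± 0.134 and 0.136 ± 0.0324 CPM in the controls (SD, n = 3). Hist1h4m had 0 to 1.07 CPM in tumors 1 to 6 and 0 counts in tumors 7 to 9 and in the controls, and did not pass the filter on low counts.

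Hist4h4 was unlike the other members in the controls. It was at 51.9, 92.0, 30.9, 64.5, 15.7 and 18.3 CPM in tumors 1 to 6, against 47.6, 48.0 and 27.1 CPM for tumors 7 to 9 and 28.9, 19.9 and 19.8 CPM in the controls. That order depended on the scaling. Over all 12 libraries its log2 fold change was negative with library totals and -1.60 on log2(TPM + 1), where limma called it lower. Among protein-coding genes it ranked at percentile 69.2 to 93.9 in tumors 1 to 6, against 93.9 to 96.1 in the controls. On the CPM scale, tumors 5 and 6 were the lowest of the 12 libraries for Hist4h4. Per length it stood at 10.6 times the median receptor gene in the controls, but it exceeded the 95th percentile of the receptor genes in control 1 only. Its share of the histone signal was 0.0398% to 0.424% in tumors 1 to 6, against 6.25% to 16.7% for tumors 7 to 9 and 10.7% to 15.9% in the controls. Its transcript model of 2863 bases holds the stem-loop 2445 bases before its end and AATAAA, the usual poly(A) signal, in its last 40 bases. Words of 31 bases of its own made up 85.7% of the model. It shared words with 147 genes, of which 1 was a histone gene, and the part of reads from those genes in its level was not tested.

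Summed per length, H2B gave the largest share of the histone signal in tumors 1, 2, 4 and 5, and H2A in tumors 3 and 6. Over tumors 1 to 6, H1 gave 8.97% to 14.3% (median 12.6%), H2A 17.2% to 33.9% (median 23.2%), H2B 29.5% to 48.1% (median 36.1%), H3 14.1% to 23.7% (median 19.0%) and H4 4.31% to 9.80% (median 6.42%). Hist2h2bb alone was 11.6% to 38.8% of the whole. Without it, chosen as an alternative after seeing the data, the median shares were 16.5% for H1, 30.3% for H2A, 16.3% for H2B and 24.1% for H3. H4 held 19.4% of the genes and the smallest median share of signal of the 5 types. In the controls, where most members were at the receptor background, H4 gave 23.0% to 31.7%, of which Hist4h4 was the largest part.

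Hist1 gave 53.3% to 79.3% of the per-length signal in tumors 1 to 6 with 80.6% of the genes, and Hist2 gave 18.4% to 44.9% with 14.9% of the genes. Without Hist2h2bb the medians were 88.0% for Hist1 and 9.095% for Hist2. Within Hist1, the first block of 18 genes, which holds Hist1h2ai, Hist1h3i and Hist1h4k, gave 49.1% to 56.2% of the Hist1 signal. The block of 29 genes, which holds Hist1h1e, Hist1h1a and Hist1h2bg, gave 39.1% to 48.3%, and the block of 5 genes gave 1.62% to 6.48%. The last block, the testis pair Hist1h2aa and Hist1h2ba, gave at most 0.0685%.

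**Figure D3:**
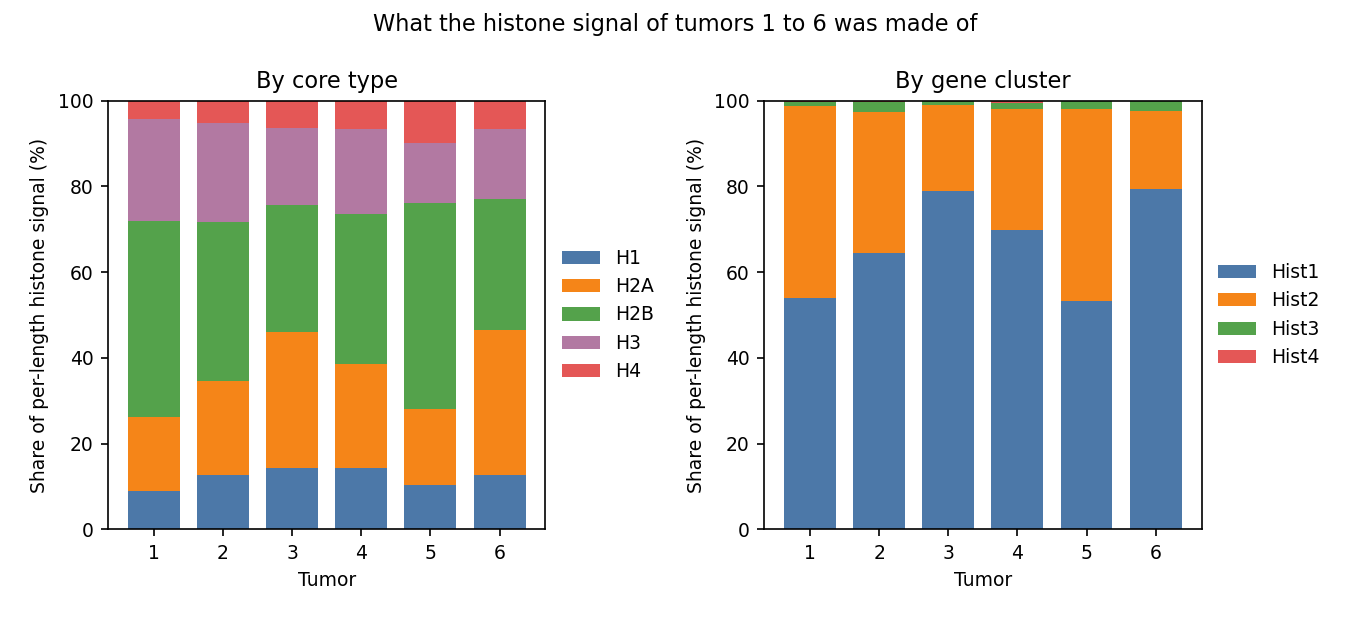
Share of the per-length histone signal (percent) in tumors 1 to 6 by core type (left) and by gene cluster (right), as stacked bars that each add to 100. H2B and Hist2 are widest in tumors 1 and 5, where Hist2h2bb alone was 36.7% and 38.8% of the signal.

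The highest genes of tumors 1 to 6 overlapped in part, and the tumors share their annotation and its ambiguities. Among the 5 highest members of each tumor, only Hist2h2bb was in all 6 lists, of 10 genes that appeared. Among the 10 highest members of each tumor, 7 of 14 genes were in all 6 lists: Hist1h1e, Hist2h2aa2, Hist1h2ao, Hist2h2bb, Hist1h2bg, Hist1h3i and Hist1h3h. Among the 20 highest, 14 of 28 genes were. The 10 highest members gave 54.9% of the per-length signal in tumor 6 and 72.9% in tumor 5. Tumor 6 was the highest of tumors 1 to 6 in 50 members and tumor 4 the lowest in 28. Relative to the median of tumors 1 to 5, the CPM of tumor 6 was 2.70 times as high in the median member. This ratio was 4.85 for H2A genes, 3.38 for H4, 3.21 for H2B, 2.36 for H1 and 1.77 for H3. Hist1h2ab, Hist1h2ae and Hist1h2ac, chosen after their values were seen, had 7 to 764, 4 to 510 and 25 to 1247 counts in tumors 1 to 6. The lowest values of Hist1h2ab, in tumor 4, and Hist1h2ae, in tumor 1, were below the 95th percentile of the receptor genes in those libraries, so no ratio is given.

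Genes of H2A and H2B often lie head to head with a shared start region, and 12 such divergent pairs with starts 175 to 305 bases apart were found among the members. The 2 genes of a pair were often at unequal levels per length. In tumors 1 to 6, Hist1h2ao had a median of 446 CPM per kb and its partner Hist1h2bq 3.52. In the pair whose start region is printed above, Hist1h2bg had 319 CPM per kb and Hist1h2ae 20.4. Hist1h2bk (122) exceeded Hist1h2ah (9.88), and Hist2h2ac (69.4) exceeded Hist2h2be (4.84). Levels were closer for Hist1h2ai (518) with Hist1h2bl (166), and for Hist1h2ac (64.6) with Hist1h2bc (49.8). Apart from the testis pair, which was at the receptor background, the H2A gene was higher in 7 of 11 pairs and the H2B gene in 4, and in 7 of the pairs the same partner was higher in all of tumors 1 to 6. Words of 31 bases found in no other transcript made up a median of 11.0% of the H2A and 26.4% of the H2B transcripts with a sequence, so the split between copies that share reads is uncertain in each pair. Models also differed in length within some pairs: Hist1h2ao has 480 bases and Hist1h2bq 2015 and 2121, Hist2h2ac has 520 and Hist2h2be 2620. The size of those gaps therefore depends in part on the division by length.

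**Figure D4:**
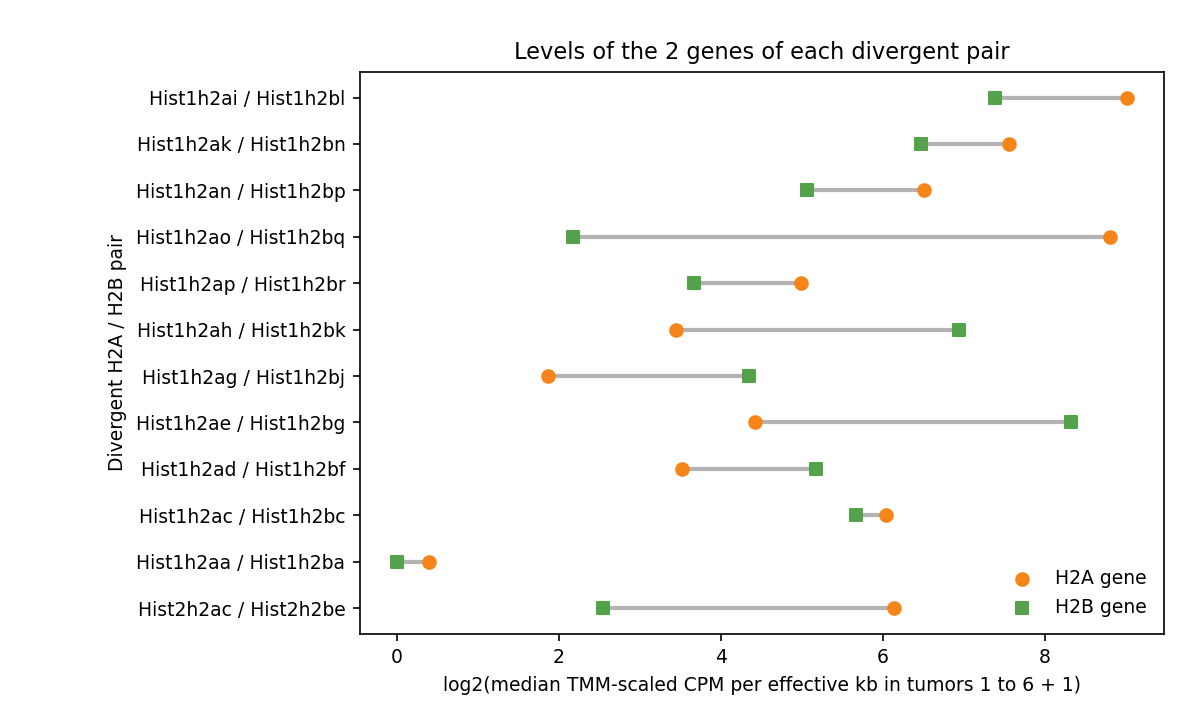
Median level over tumors 1 to 6 of the H2A gene (circle) and the H2B gene (square) of each of the 12 divergent pairs, as log2 of CPM per effective kilobase plus 1. The longest line joins Hist1h2ao and Hist1h2bq, whose models are 480 bases long against 2015 and 2121.

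Per length, the median level was lower for transcript models that hold AATAAA in their last 40 bases. These 11 transcripts, among them those of Hist1h1c, Hist3h2a, Hist3h2ba and Hist4h4, had a median of 7.40 CPM per kb in tumors 1 to 6, against 66.7 for the 36 without it. The first set had a median length of 1630 bases and the second of 452 bases, and short models have short effective lengths: the 312 bases of Hist1h4k counted as 145 to 156 and the 381 of Hist2h2bb as 205 to 218 in tumors 1 to 6. The short models of Hist1h4k and Hist2h2bb held no stem-loop either, and a lack of AATAAA describes the model and not the RNA. Because the sets also differed in length, their medians cannot decide whether the signal goes with level. That was not tested apart from length. By counts in place of counts per length, the median share of H1 was 21.8% and that of H2B 26.1%. The stem-loop lay within 60 bases of the end in 16 transcripts, with a median of 34.3 CPM per kb, and more than 100 bases before it in 10, with a median of 12.7.

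In the comparison of all 9 tumors with the 3 controls, 66 members passed the filter on low counts and none was called higher or lower by edgeR's quasi-likelihood test with Benjamini-Hochberg adjusted p below 0.05. The background in this fit was 0.0% of 40521 genes called higher and 0.00494% called lower, and the smallest adjusted p of a member was 0.129. At an unadjusted p below 0.05, 58 members were higher and 0 lower, against 16.9% of all genes higher and 1.10% lower. The median member had a log2 fold change of 5.80, tumor over control, and the median of all genes tested was -0.45. The member median was 5.24 with relative log expression (RLE) factors, 3.55 with library totals and 1.36 on log2(TPM + 1), where all genes had medians of -0.72, -1.82 and -1.14. DESeq2 called 49 members higher and 0 lower, where 9.97% of all genes were called higher and 0.126% lower, and gave no adjusted p for 9 members. On log2(TPM + 1), limma called 27 members higher and 3 lower (Hist1h2aa, Hist1h2bq and Hist4h4), where 0.323% of all genes were called higher and 79.3% lower. The log2 fold change was negative in 1 of 66 members in the fit of 12 libraries, in 8 with library totals, among them Hist1h1t, Hist1h2ba and Hist4h4, and in 11 on log2(TPM + 1). With RLE factors, library totals and the count filters tried, edgeR called 0 members. The fitted values of Hist2h2aa2 and Hist2h3b, at 0 in all controls, are no measure of size, and with both at their lower bound the member median was also 5.80.

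Without tumors 7 to 9, edgeR's quasi-likelihood test with Benjamini-Hochberg adjustment called 56 of 63 members higher and 0 lower, where 19.6% of 38567 genes were called higher and 20.3% lower. The log2 fold change of the median member was 6.21 and that of all genes -1.29. Called higher were 5 of 6 H1 genes, 16 of 17 H2A, 16 of 17 H2B, 11 of 12 H3 and 8 of 11 H4 genes. For Hist1h1e the log2 fold change in this fit was 8.89 ± 0.71 (SE), with an adjusted p of 1.83e-05 by edgeR's quasi-likelihood test. In the fit of all 12 libraries Hist1h1e had 8.57 ± 1.96 (SE) and an adjusted p of 0.129 by the same test. Hist4h4 had 0.64 ± 0.47 (SE, adjusted p = 0.252 by edgeR) without tumors 7 to 9, and Hist1h1t had 1.88 ± 0.99 (SE, adjusted p = 0.126 by edgeR). Tumors 7 to 9 alone against the controls gave 0 of 43 members called by edgeR, where 0.0247% of genes were called in each direction, with 20 higher and 1 lower at an unadjusted p below 0.05, against 5.18% of genes higher and 3.86% lower, and a median log2 fold change of 1.09 for the members and -0.01 for all genes. DESeq2 was not run on that subset.

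**Figure D5:**
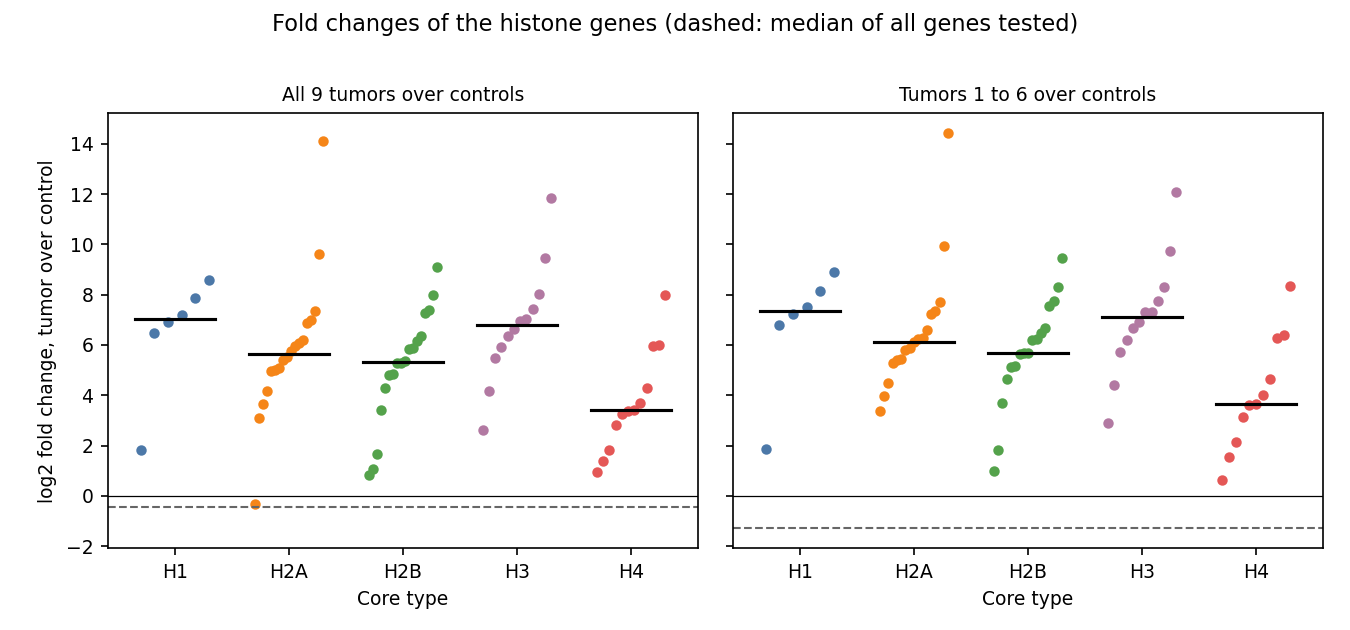
Log2 fold change of each member (points), tumor over control, by core type, for all 9 tumors (left) and for tumors 1 to 6 (right). Bars are medians of the core types, the dashed line is the median of all genes tested, and H4 genes have the lowest median of the 5 types in both panels.

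All of tumors 1 to 6 were above the highest control in 53 of the 67 members on the CPM scale, where 20.3% of all genes tested were. The other 14 were Hist1h1t, Hist1h2aa, Hist1h2ad, Hist1h2ag, Hist1h2ah, Hist1h2ap, Hist1h2ba, Hist1h2bq, Hist1h4j, Hist1h4m, Hist2h2aa1, Hist2h3c1, Hist2h4 and Hist4h4. On the authors' deposited TPM scale the count was 33 members, where 1.22% of genes were, and with library totals it was 37 members, where 3.16% were, and on both scales 2 members lay below every control in all of tumors 1 to 6. All 9 tumors were above every control in 16 members on the CPM scale, against 1.62% of all genes, and tumors 7 to 9 were all above every control in 18 members, against 7.21%. With library totals these counts were 3 members for all 9 tumors, against 0.074% of genes, and 3 for tumors 7 to 9, against 0.491%. On the TPM scale they were 1 member for all 9 tumors, against 0.0543%, and 1 for tumors 7 to 9, against 0.215%. T cell genes and mitochondrial counts differed between the same libraries, as given above, and the 7 macrophage genes summed to 22.0 to 168 CPM in tumors 1 to 6, against 13.2 to 14.6 CPM for tumors 7 to 9 and 12.9 to 14.9 CPM in the controls. The other cell type lists of 7 genes each, in tumors 1 to 6, tumors 7 to 9 and the controls, summed to 5.10 to 25.6, 33.0 to 45.0 and 31.4 to 36.9 CPM for B cells, 2.67 to 10.1, 4.74 to 5.94 and 5.58 to 15.6 CPM for erythroid cells, 27.3 to 49.1, 30.9 to 32.7 and 26.1 to 33.7 CPM for thymic epithelium, and 1.36 to 6.54, 8.59 to 10.5 and 7.77 to 10.4 CPM for testis germ cells. In bulk tissue, fewer cells of a type and less RNA per cell cannot be told apart. The part of composition, depth and RNA quality in these differences was not tested.

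Genes that make, carry or accompany histones gave no call in the fit of all 12 libraries, as no gene of the series was called higher. Of 20 genes that transcribe, process or degrade histone messages, 15 were higher at an unadjusted p below 0.05, where 16.9% of all genes were. In the edgeR fit of tumors 1 to 6 against the controls, 16 of the 20 were higher and 1 was lower, where 19.6% of all genes were called higher and 20.3% lower. Slbp, whose product binds the stem-loop, was at 81.6 to 174 CPM in tumors 1 to 6, against 7.85 to 16.2 CPM for tumors 7 to 9 and 10.2 ± 1.53 CPM in the controls (SD, n = 3). Npat was at 61.1 to 154 CPM in tumors 1 to 6, against 3.94 to 9.65 CPM for tumors 7 to 9 and 4.52 ± 1.41 CPM in the controls (SD, n = 3). Lsm11, a part of the U7 particle, was at 4.15 to 9.22 CPM in tumors 1 to 6, against 5.67 to 6.24 CPM for tumors 7 to 9 and 5.17 ± 0.893 CPM in the controls (SD, n = 3), and the groups overlapped. The gene called lower was Zfp473, of the U7 particle, chosen after its values were seen, at 4.23 to 20.6 CPM in tumors 1 to 6, against 15.7 to 18.0 CPM for tumors 7 to 9 and 16.6 ± 1.51 CPM in the controls (SD, n = 3). Its log2 fold change without tumors 7 to 9 was -0.98 ± 0.37 (SE), with an adjusted p of 0.0478 by edgeR.

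Replication-independent histone genes, which are expressed outside S phase as well and give polyadenylated messages, rose in 9 of 11 cases without tumors 7 to 9 by edgeR at an adjusted p below 0.05, and 0 fell, where 19.6% of all genes were called higher and 20.3% lower. H3f3b, a gene of H3.3, was at 73.5 to 452 CPM in tumors 1 to 6, against 3.39 to 8.03 CPM for tumors 7 to 9 and 7.70 ± 0.587 CPM in the controls (SD, n = 3). H2afz, the gene of H2A.Z, was at 44.1 to 207 CPM in tumors 1 to 6, against 1.81 to 2.89 CPM for tumors 7 to 9 and 4.54 ± 0.976 CPM in the controls (SD, n = 3). H2afx, the gene of H2A.X, was at 10.5 to 78.2 CPM in tumors 1 to 6, against 0.405 to 2.84 CPM for tumors 7 to 9 and 1.10 ± 0.124 CPM in the controls (SD, n = 3). Tumors 7 to 9 were all below every control for H2afz. Per length, Hist1h1e with a median of 410 CPM per kb in tumors 1 to 6 stood above H3f3b with 131 and H2afz with 109. The summed CPM of the 67 members was 3.04 to 7.19 times that of the 11 replication-independent genes in tumors 1 to 6, 2.13 to 2.94 times in tumors 7 to 9 and 0.970 to 1.15 times in the controls.

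Histone chaperones and S phase genes were also high in tumors 1 to 6. Without tumors 7 to 9, edgeR called 20 of 20 chaperone genes and 23 of 24 S phase genes higher, and the median log2 fold changes were 3.45 and 3.31, against 6.21 for the histone members and 3.81 for ribosomal protein genes. In this fit 19.6% of all genes were called higher. On log2(TPM + 1) with all 12 libraries, Nasp, Asf1b and Chaf1b, like Slbp and H2afz, had negative log2 fold changes, of -0.30, -0.57, -1.09, -0.24 and -0.03. Nasp, which binds free H3 and H4, was at 154 to 268 CPM in tumors 1 to 6, against 15.5 to 31.3 CPM for tumors 7 to 9 and 21.8 ± 2.69 CPM in the controls (SD, n = 3). Asf1b and Chaf1b, which hand new histones to replicated DNA, were at 16.9 to 30.6 and 23.3 to 54.8 CPM in tumors 1 to 6, 1.61 to 2.16 and 6.70 to 8.68 CPM in tumors 7 to 9, and 1.86 ± 0.452 and 8.57 ± 0.792 CPM in the controls (SD, n = 3). Pcna and Mcm3, of the replication fork, were at 105 to 235 and 110 to 174 CPM in tumors 1 to 6, 1.78 to 5.55 and 3.59 to 5.54 CPM in tumors 7 to 9, and 5.03 ± 0.5 and 4.94 ± 1.41 CPM in the controls (SD, n = 3). Tumors 7 to 9 overlapped with the controls for all 5 of these genes. Summed, the histone members stood at 1.03 to 3.25 times the CPM of the 24 S phase genes in tumors 1 to 6, 0.327 to 0.612 times in tumors 7 to 9 and 0.202 to 0.256 times in the controls. Tumor 6 had the highest ratio and tumor 4 the lowest of tumors 1 to 6.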

How the data were processed

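Polyadenylated RNA of 12 mouse thymus libraries was sequenced, 9 tumors and 3 controls. The authors deposited estimated counts per transcript and TPM, with each transcript's length in bases and its effective length, as the file headers name them. All 4 quantities are per the file headers. Kallisto, FastQC and build mm10 are named in the submitters' processing notes, with versions not given in the sources used here, nor the release of the index. Estimated counts were summed per gene, rounded, and tested with edgeR 4.0.16 (quasi-likelihood test, TMM factors, filterByExpr, Benjamini-Hochberg, threshold 0.05) in R 4.3.3, with all 12 libraries in 1 fit and no covariate. The deposited TPM values were summed per gene and tested with limma 3.58.1 on log2(TPM + 1) or log2(TPM + 0.1), and DESeq2 1.42.0 was run on the counts. Folds on the log2(TPM + pseudocount) scale understate changes of low genes. The SE given for an edgeR fit is the absolute log2 fold change divided by the square root of the test's F statistic. Per-length levels are estimated counts divided by effective length, summed over transcripts and TMM-scaled. The edgeR step was run on simulated data with known fold changes, the same spread for all genes and the same starting composition for all libraries. The real libraries differed in composition, so that run cannot decide how the test behaved on them. Tables and figures were made with Python 3.11.15, pandas 2.3.3, numpy 2.4.6, scipy 1.17.1 and matplotlib 3.10.9. Coordinates and transcript sequences are of GENCODE M21, where 110368 of the 128622 deposited transcripts matched, and promoters of RefSeq GRCm38.p6.

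The members and lists were chosen with earlier results of these data known. Named with values were, in each core type, the 4 members with the highest median per-length level in tumors 1 to 6 and the 1 with the lowest, every H1, Hist3 and Hist4 member, every member called in the fit of all libraries (there were 0), and 11 genes of the context lists. Other genes named are marked as chosen after their values were seen, or are overlapping genes, pair partners or members of a complete list. Alternatives were other scalings, count filters, tests, pseudocounts, denominators and the longest transcripts left out, each library left out, tumors 7 to 9 left out or alone, and a replicate block. Leaving out Hist2h2bb and the unblocked fit of the same 6 libraries were added after seeing the data. Of the histone symbols, 3 pseudogenes were not members.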

Additional observations from a re-analysis of the deposited data

Results flagged for a closer look

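Over the 9 tumors, a single tumor lay apart from the others in 6 of 40 sets of values tested with Dixon's criterion. Chance alone meets this criterion in about 1 in 20 sets if the sets are independent and their values normally distributed. The 40 sets were all of the same 9 tumors, so they were not independent and that rate does not apply. The count of 6 therefore cannot decide whether more sets were flagged than by chance. Tumor 5 was apart for Hist1h1t, the testis H1 gene, at 3.75 CPM. Tumor 6 was apart for 5 members, Hist1h2ai at 468.6 CPM, Hist1h2bg at 253.5 CPM, Hist1h2bk at 123.7 CPM, Hist1h4d at 40.2 CPM and Hist3h2ba at 36.83 CPM. Tumor 6 was also the highest of tumors 1 to 6 in 50 of the 67 members.

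Signal stood above the controls in 2 of 3 histone pseudogenes, which were not used in any comparison. The other, Hist1h2aj, had 0 counts in tumors 1 to 5 and was at 0.510 CPM in tumor 6, 0 to 0.889 CPM in tumors 7 to 9 and 0.0331 to 0.473 CPM in the controls. Hist3h2bb-ps was at 20.45 to 104.6 CPM in tumors 1 to 6, against 0.212 to 0.536 CPM for tumors 7 to 9 and 0.162 to 0.530 CPM in the controls. Hist1h2al was at 2.792 to 20.64 CPM in tumors 1 to 6, against 0.231 to 1.40 CPM for tumors 7 to 9 and 0 counts in the controls. Pseudogenes share sequence with the coding genes, and how reads were divided between them was not tested.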

How the results depend on the processing

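For members and all genes, edgeR's quasi-likelihood test with Benjamini-Hochberg adjustment gave 0 members higher with RLE factors, library totals and both count filters. DESeq2 called 49 members higher, with 4039 genes higher and 51 lower. On log2(TPM + 1) limma called 27 members higher and 3 lower, with 131 genes higher and 32116 lower and a member median of 1.36. On log2(TPM + 0.1) it called 25 higher and 2 lower, with 119 and 31026 genes and a median of 1.62. Library totals gave a member median of 3.55. Without tumors 7 to 9, edgeR called 56 members and 7562 genes higher and 7823 lower. Tumors 7 to 9 alone gave 9 genes higher and 9 lower and a median of 1.09. Leaving out each library in turn gave 0 members, 0 to 3 genes lower and a member median of 5.13 to 5.96.

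The numbers 1 to 3 are shared by tumors and controls, and deviations of same-numbered libraries from their group means correlated at -0.03, 0.05 and 0.01. Differently numbered libraries were not compared, so these values cannot decide whether the numbers pair the libraries. With the replicate block, tumors 1 to 3 against controls 1 to 3 gave 55 members and 8091 genes higher and 1827 lower. The same 6 libraries without the block gave 58 members and 8717 genes higher and 3565 lower.

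Of 66 members, 1 had a negative log2 fold change in the fit of 12 libraries, 8 with library totals, 11 on log2(TPM + 1) and 16 on log2(TPM + 0.1). Among the members and other genes named by the rule, the following turned negative. With library totals, Hist1h1t was at -0.058, Hist1h2ba at -0.59, Hist4h4 at -0.92, Lsm11 at -1.43 and Chaf1b at -0.58. On log2(TPM + 1), Hist1h1t was at -0.35, Hist1h2ba at -0.38, Hist2h3c1 at -0.35, Hist4h4 at -1.60, Slbp at -0.24, Lsm11 at -0.92, H2afz at -0.031, Asf1b at -0.57, Chaf1b at -1.09 and Nasp at -0.30. On log2(TPM + 0.1), Hist1h1t was at -0.89, Hist1h2ba at -0.94, Hist2h3c1 at -1.49, Hist4h4 at -1.84, Slbp at -0.27, Lsm11 at -1.995, H2afz at -0.11, Asf1b at -0.74, Chaf1b at -1.25 and Nasp at -0.32. Lsm11 was at -0.13 with RLE factors and with DESeq2, -0.23 on protein-coding nuclear genes, -0.081 without tumors 7 to 9 and -0.050 to 0.28 over libraries left out. In tumors 7 to 9 against the controls, Hist2h3c1 was at -3.30, H2afz at -0.92, H3f3b at -0.34, Asf1b at -0.022, Chaf1b at -0.19, Pcna at -0.61 and Mcm3 at -0.14. The cause of these changes was not tested.

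Shares of counts in place of per-length signal had medians of 21.8% for H1, 26.1% for H2B, 7.72% for Hist3 and 1.35% for Hist4. Without Hist2h2bb they were 16.5% for H1, 30.3% for H2A, 16.3% for H2B, 24.1% for H3, 88.0% for Hist1, 9.095% for Hist2 and 2.26% for Hist3. With protein-coding nuclear counts as the denominator, the histone share was 0.758%, 0.826%, 0.471%, 0.387%, 0.610% and 1.42% in tumors 1 to 6, 0.0146%, 0.0466% and 0.0303% in tumors 7 to 9, and 0.0243%, 0.0270% and 0.0244% in the controls. In the controls a floor of 3 counts was at most 0.121 CPM.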
